A study of Homo sapiens with 8 samples.

Results

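The genomic sites described here are the NKRF peaks that were called at the same place in both libraries of cells in which Uc003xsl.1, a long non-coding RNA, had been targeted by siRNA. A peak of one of these lists was taken when it shared at least 1 bp with a peak of the other. The rule took 159 of the 7577 peaks of si-Uc003xsl.1 replicate 1 (2.10%) and 156 of the 4463 peaks of replicate 2 (3.50%), which makes 315 of the 20386 peaks in the 4 lists of the series. Overlapping members were joined into 155 regions. The members were thus chosen by the positions of called peaks in both lists. Their tag numbers and widths come from the same calls, and a wide peak meets another more easily, so these values are descriptions and carry no test.

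The study immunoprecipitated NKRF from MDA-MB-231-P3 cells and sequenced the bound DNA (ChIP-seq). The labels describe this line as a strongly metastatic derivative of triple-negative breast cancer cells. The 2 groups were cells labelled control and cells labelled si-Uc003xsl.1. Each had 2 NKRF libraries, made in the same subline with the same anti-NKRF antibody. The siRNA was delivered by lipofection. The labels name no separate cultures. No value for the level of Uc003xsl.1 itself was used. Filtered NKRF tags numbered 18890698 and 11366267 in the knockdown replicates and 19335431 and 8250475 in the controls. The list of control replicate 2 came from another version of the peak caller with another threshold and tag length, so replicate and processing cannot be told apart there. The knockdown lists and control replicate 1 shared the caller and its settings. The fragment length the caller used differed, at 60 and 67 bp in the knockdown replicates and 49 bp in control replicate 1. The labels give fragments of 100 to 500 bp. What these lengths meant for peak widths and overlaps was not tested.

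NKRF, the NF-kB repressing factor, is a nuclear protein known for silencing NF-kB driven genes from negative regulatory elements in their promoters, among them those of interferon beta and IL8. It is also found in the nucleolus, where it takes part in ribosomal RNA processing. Many human genes start within CpG islands, stretches rich in GC and in the dinucleotide CG, and such promoters often drive transcription in both directions.

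Promoter windows at 5 of the most heavily tagged regions are printed as examples from gene starts and do not stand for all recurring regions. They were the 5 regions with the highest tag ranks whose RefSeq window, from 250 bases before to 50 bases after a gene's start, lay wholly inside the region. The windows are from GRCh38.p14 and are printed 5′ to 3′ on the strand of the gene. Capitals mark GC boxes (GGGCGG, or CCGCCC for the other strand) and CCAAT boxes (CCAAT, or ATTGG). They lie at chr20:63520491-63520790 (plus strand) for PPDPF, chr7:155297628-155297927 (plus strand) for INSIG1, chr3:185824993-185825292 (minus strand) for IGF2BP2, chr1:85200967-85201266 (minus strand) for SYDE2 and chr3:184314914-184315213 (plus strand) for EIF4G1.
PPDPF: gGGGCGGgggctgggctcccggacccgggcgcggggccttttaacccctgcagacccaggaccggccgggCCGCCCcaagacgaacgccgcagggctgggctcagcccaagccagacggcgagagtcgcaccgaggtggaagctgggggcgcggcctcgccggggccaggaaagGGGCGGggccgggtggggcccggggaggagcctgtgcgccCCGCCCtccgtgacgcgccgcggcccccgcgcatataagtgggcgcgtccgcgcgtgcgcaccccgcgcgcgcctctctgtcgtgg
INSIG1: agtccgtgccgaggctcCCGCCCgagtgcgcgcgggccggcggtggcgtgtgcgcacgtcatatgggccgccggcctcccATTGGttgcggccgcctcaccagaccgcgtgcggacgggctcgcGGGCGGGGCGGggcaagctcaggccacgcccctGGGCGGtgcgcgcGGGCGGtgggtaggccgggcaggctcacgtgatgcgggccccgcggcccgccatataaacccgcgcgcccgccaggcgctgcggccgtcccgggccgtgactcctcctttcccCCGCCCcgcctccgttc
IGF2BP2: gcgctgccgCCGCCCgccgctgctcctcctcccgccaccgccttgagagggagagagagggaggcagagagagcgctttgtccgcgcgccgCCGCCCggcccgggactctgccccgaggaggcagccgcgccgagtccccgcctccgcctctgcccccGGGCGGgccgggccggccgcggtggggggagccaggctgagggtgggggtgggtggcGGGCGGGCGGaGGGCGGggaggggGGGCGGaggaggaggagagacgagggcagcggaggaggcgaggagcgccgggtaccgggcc
SYDE2: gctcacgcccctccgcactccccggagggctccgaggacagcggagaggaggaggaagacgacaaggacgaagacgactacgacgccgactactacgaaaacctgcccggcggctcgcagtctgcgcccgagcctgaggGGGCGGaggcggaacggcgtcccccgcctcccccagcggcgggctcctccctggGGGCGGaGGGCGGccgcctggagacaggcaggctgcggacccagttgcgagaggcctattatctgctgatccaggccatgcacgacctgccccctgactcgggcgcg
EIF4G1: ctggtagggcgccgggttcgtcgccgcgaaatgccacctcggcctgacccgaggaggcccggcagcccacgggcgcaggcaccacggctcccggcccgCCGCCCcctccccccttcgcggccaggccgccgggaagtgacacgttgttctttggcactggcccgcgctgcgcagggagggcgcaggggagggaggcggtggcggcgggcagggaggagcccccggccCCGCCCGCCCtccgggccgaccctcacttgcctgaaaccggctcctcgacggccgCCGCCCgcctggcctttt
These windows held 4, 6, 7, 3 and 4 GC boxes and 42, 48, 38, 33 and 38 CG dinucleotides, with a GC content of 78.7%, 78.3%, 80.7%, 71.3% and 77.3%. The window at KRT38, which encodes a hair keratin, is shown as the one with the fewest CG dinucleotides for its base composition among windows that a recurring region touched. It lies at chr17:41440934-41441233 (minus strand) and held 3 CG dinucleotides, 1 GC box and 1 CCAAT box at 48.3% GC.
KRT38: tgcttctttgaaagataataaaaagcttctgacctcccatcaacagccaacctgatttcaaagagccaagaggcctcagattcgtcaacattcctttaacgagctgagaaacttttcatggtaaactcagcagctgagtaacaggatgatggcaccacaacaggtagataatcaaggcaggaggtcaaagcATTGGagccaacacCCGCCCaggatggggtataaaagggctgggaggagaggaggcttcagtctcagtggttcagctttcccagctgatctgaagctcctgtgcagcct

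The 12 regions ranked highest by tags over both libraries neighboured genes of varied roles, and 10 of them lay at a gene start. At PPDPF, named for a pancreatic progenitor differentiation factor, the region on chromosome 20 at 63519057 to 63521587 held 185 tags in replicate 1 and 83 in replicate 2. It was the widest of all, at 2531 bp. INSIG1, whose protein holds back sterol synthesis in the endoplasmic reticulum, had 136 and 78 tags on chromosome 7 at 155296870 to 155298568. IGF2BP2, which encodes an mRNA-binding protein of oncofetal type, had 82 and 101 tags in 2284 bp on chromosome 3. In both lists these 3 loci lay among the highest tag counts, with mean percentiles of 99.76, 99.67 and 99.62 within their lists. That at IGF2BP2 no longer counted as shared under a reciprocal overlap of 50%.

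Behind them came SYDE2, a GTPase-activating protein gene, with 85 and 70 tags, and CLCF1, a cytokine gene of the IL6 family, with 103 and 59. EIF4G1, the scaffold of the cap-binding translation initiation complex, had 74 and 77 tags at 184314393 to 184315574 on chromosome 3. NOM1, a nucleolar protein gene, had 82 and 62, and MTCL2, a microtubule crosslinking factor gene, had 79 and 46. The regions at CLCF1 and NOM1 lay at a gene end whose strand was not in the promoter table. All of these stood far above the list medians of 7 and 8 tags in both libraries. The remaining members of the 12 highest by tag rank were ZMYND11, a chromatin reader gene (66 and 50 tags), ANP32B, which encodes an acidic nuclear histone-binding protein (71 and 45), NSFL1C, a cofactor of the p97 ATPase (54 and 48), and RIPK1 (63 and 43). RIPK1 is the kinase that links tumour necrosis factor receptors to NF-kB.

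Over all 155 regions, tags in the strongest peak ran from 7 to 185 in replicate 1 and from 6 to 101 in replicate 2. The 159 member peaks of replicate 1 had a median of 30 tags, against 7 among the 7418 others of that list, and the 156 of replicate 2 had 21 against 8. Median widths were 544 bp against 175 bp and 446 bp against 201 bp. At least 500 bp wide were 85 of 159 members in replicate 1 (53.5%, with 9.42% over the whole list) and 62 of 156 in replicate 2 (39.7%, with 11.0% over the whole list). At least 1000 bp wide were 24 members in replicate 1 (15.1%, with 1.64% over the whole list) and 7 in replicate 2 (4.49%, with 1.10% over the whole list). Among peaks of 500 bp or more the tags of members and others lay close, with medians of 46 and 42 in replicate 1 and 37 and 34 in replicate 2. The authors' fold enrichment over input was lower in members, with medians of 5.65 against 10.24 and 6.21 against 10.56. No member had the caller's false discovery rate at or below 5% (0 of 315). In replicate 1 no peak of the whole list did, since its lowest rate was 10.00%, so the count says nothing particular of members there. In replicate 2 the lowest rate was 9.77% among members and 0.00% over the whole list. Lower quartiles there were 10.55% and 10.46%. The share of that list at or below 5% was not counted, so the 0 shows no trait particular to members. Recurring peaks were thus wider and held more tags, at a lower fold over input, than the rest of their lists. Fold was not compared among peaks of like width or tag number, so it is a description too.

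Tags of the paired libraries followed each other across the regions, with a Spearman correlation of 0.77 (Pearson's r of 0.80 on log2 tags, 155 regions). Tags also rose with peak width in replicate 1 (Spearman correlation 0.97), so the points share width as well as library. Scaled to the filtered tags of each library, 133 of 155 regions lay within 2-fold of each other, 20 were at least 2-fold higher in replicate 2 and 2 were at least 2-fold higher in replicate 1. The extremes were DENND2D, a gene for a Rab exchange factor, with 12 and 50 tags (log2 ratio of replicate 2 to replicate 1 of 2.79), and HPCAL1, a neuronal calcium sensor gene, with 95 and 16 (log2 ratio of -1.84).

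**Figure D1:**
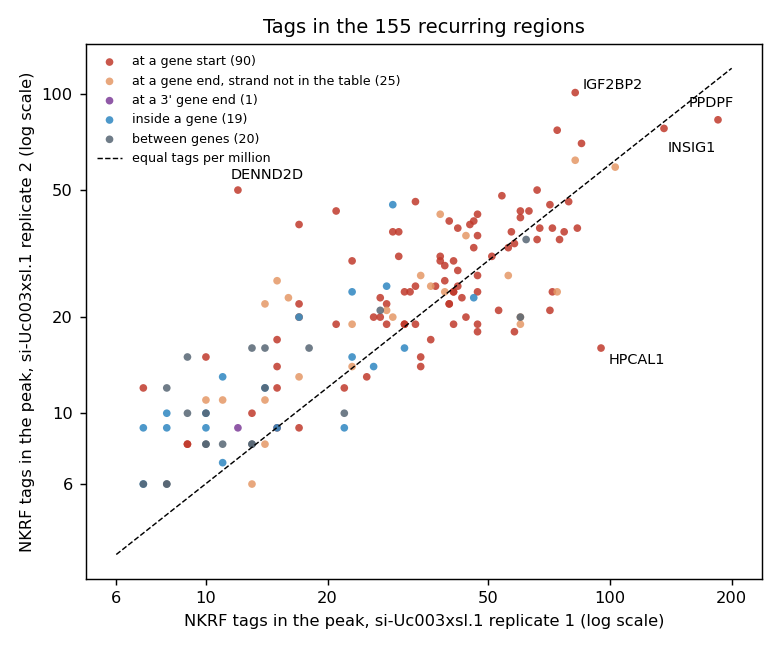
Tags in the strongest peak of each of the 155 recurring regions, replicate 1 (x axis, log scale) against replicate 2 (y axis, log scale) of si-Uc003xsl.1, 1 point per region coloured by its place. The dashed line marks equal tags after scaling to library depth; most points follow it, regions at gene starts fill the upper right and HPCAL1 and DENND2D stand farthest from it.

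Starts of protein-coding genes held most of the recurring regions. Within 1 kb of an annotated start, or of a 5′ gene end, lay 90 of 155 regions (58.1%, exact Clopper-Pearson 95% interval 49.9 to 65.9). Over all peaks the share was 14.2% in replicate 1 and 19.8% in replicate 2, and in controls it was 47 of 7444 (0.631%) and 16 of 902 (1.77%). By peaks, it was 94 of 159 members (59.1%, interval 51.1 to 66.8) against 980 of 7418 others (13.2%, interval 12.4 to 14.0) in replicate 1, and 91 of 156 (58.3%) against 791 of 4307 (18.4%) in replicate 2, with intervals of 50.2 to 66.2 and 17.2 to 19.6. These intervals cover counting error only, and peaks of 1 library are not replicates, so no test was made. Measured from the summit of the replicate 1 peak instead of the edges, the share of regions was 56.1%. The control lists are unlike the knockdown lists in their peaks. In control replicate 1, 68.1% of peaks held the smallest tag count, against 31.9% and 33.1% in the knockdown lists, and control replicate 2 was called otherwise.

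A further 25 regions (16.1%) lay at an end of a gene whose strand the promoter table did not give, such as those at VHL, CBFB, PTPRJ and EXT1. That table gave no protein-coding start on chromosome 8, which held 6 regions, so no region or peak there could be placed at a start. Only 1 region was tied to a 3′ end and to no start, that at MYO3A, an unconventional myosin gene, with 12 and 9 tags. Among member peaks within 1 kb of an outer gene end of known strand, and so without internal starts, a 5′ end was near 82 of 83 in replicate 1 (98.8%, interval 93.5 to 100.0) against 831 of 964 other peaks (86.2%, interval 83.9 to 88.3). In replicate 2 it was 78 of 79 (98.7%, interval 93.1 to 100.0) against 660 of 750 (88.0%, interval 85.5 to 90.2). Either end of a protein-coding gene was within 1 kb of 104 regions (67.1%), where all peaks gave 17.0% and 23.3%.

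Of the 90 regions at starts, 73 covered the start itself. Summits lay at a median of 52 bp downstream of the nearest start in replicate 1 and 80 bp downstream in replicate 2, with ranges of -682 to 1276 bp and -902 to 1170 bp, where negative values are upstream. Within 250 bp of the start were 51 and 52 of the 90 summits. Both summits fell on the same side of the start in 70 of 90 regions. Where a gene has several starts, each summit was measured to the nearest. At RBL2 the summits lay 68 and 92 bp downstream. At CAMSAP1, a gene for a protein that binds microtubule minus ends, they lay 854 and 846 bp downstream.

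**Figure D2:**
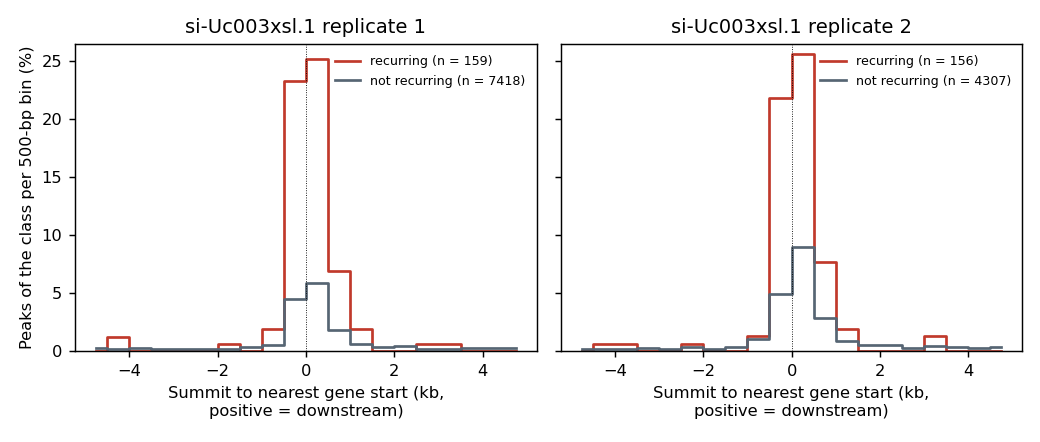
Share of peaks in each 500-bp bin of signed distance from the summit to the nearest start of a protein-coding gene (x axis, kb, positive downstream), for recurring peaks and for the other peaks of each si-Uc003xsl.1 list. Recurring peaks hold 25.2% and 25.6% of their summits in the first 500 bp downstream of a start, the others 5.92% and 9.01%.

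An internal start, away from both outer ends of its gene, accounted for 12 of the 90. These were at OTUD7B, ZMYND11, NEBL, JMJD1C, PCGF5, SMCO4, DGKA, PPP2R5C, ZNF768, HAS3, RIPK1 and ST6GALNAC6. The region at NEBL, which encodes the actin-binding protein nebulette, was 118263 bp from the nearest outer gene end and held 31 and 19 tags. That at JMJD1C, a jumonji-domain gene, was 55233 bp from one and held 67 and 38. Counting only 5′ gene ends, without internal starts, 50.3% of regions lay at a start.

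Starts on opposite strands met at several regions. At 4 of 90, protein-coding genes began on both strands within 1 kb: ACD with PARD6A, PLAGL2 with POFUT1, TCF7 with VDAC1 and DDX31 with GTF3C4. PLAGL2, a zinc finger factor gene, and POFUT1, a fucosyltransferase gene acting on Notch, shared a region with 60 and 43 tags. ACD, a telomere shelterin gene, and PARD6A, a cell polarity gene, shared one with 51 and 31. Including starts of long non-coding RNA genes, 23 of 90 regions (25.6%) had starts on both strands. The non-coding partners included 7 named as divergent transcripts, those of IBA57, CCDC88C, TNPO1, EPB41L4A, KDM7A, INSIG1 and CAMSAP1. In all, 26 of 155 regions had a long non-coding RNA start within 1 kb. At 4 of them the promoter table gave no protein-coding start, among them DLEU2 on chromosome 13 (60 and 20 tags), 103110 bp from the end of KCNRG, the closest protein-coding gene. The others were ATXN2-AS at ATXN2 and uncharacterised genes at ANKRD9 and KLHDC4, each beside an end of that protein-coding gene whose strand was not in the table. Starts on both strands and non-coding starts were not counted for the other peaks or for all promoters. These counts therefore show no trait particular to the members.

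Wider peaks recurred more often, and at 200 to under 500 bp peaks at starts recurred more often than those inside or between genes. Of replicate 1 peaks of 200 to under 500 bp, 25 of 449 at starts recurred (5.57%, interval 3.64 to 8.11), against 22 of 1531 inside or between genes (1.44%, interval 0.903 to 2.17). In replicate 2 it was 43 of 468 (9.19%, interval 6.73 to 12.2) against 26 of 1213 (2.14%, interval 1.40 to 3.12). At 500 to under 1000 bp the shares were 11.6% against 4.30% in replicate 1 and 14.1% against 4.11% in replicate 2. Their intervals overlapped there, 8.74 to 15.1 with 1.18 to 10.6 in the former and 10.4 to 18.6 with 0.856 to 11.5 in the latter. At 1000 bp or more replicate 1 gave 20.9% (interval 12.9 to 31.0) against 15.4% (interval 1.92 to 45.4), and replicate 2 gave 6 of 35 against 0 of 8. Under 200 bp it was 2 of 118 against 11 of 4493 in replicate 1, and 0 of 82 at starts against 11 of 1990 elsewhere in replicate 2. Most peaks at starts had no partner at any width: of those at 500 to under 1000 bp, 49 of 421 recurred in replicate 1 and 42 of 297 in replicate 2. Among recurring regions of 500 bp or less, 15 of 54 (27.8%) were at starts.

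**Figure D3:**
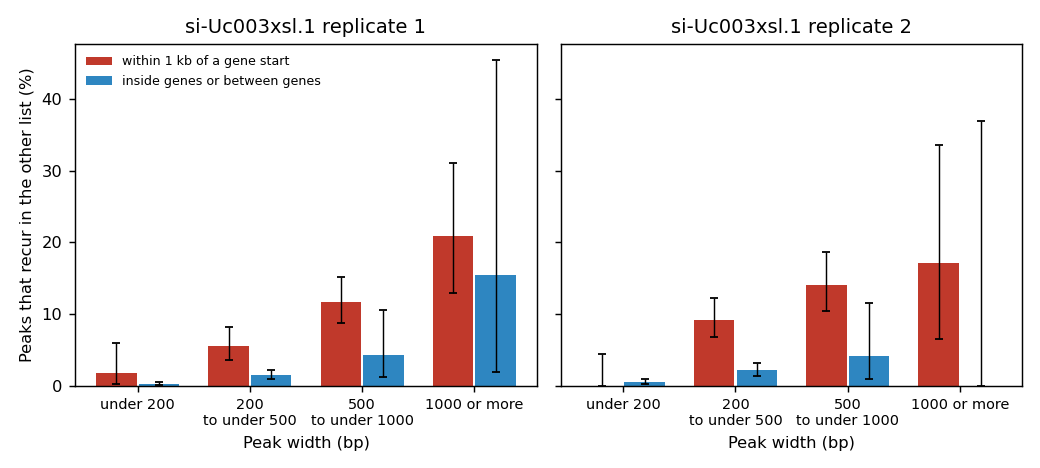
Share of peaks that overlap a peak of the other si-Uc003xsl.1 list, by peak width (x axis, bp) and place, with bars for shares and error bars for exact Clopper-Pearson 95% intervals. Shares rise from 1.69% to 20.9% at starts in replicate 1, and peaks at starts exceed peaks elsewhere at 200 to under 500 bp in both lists.

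The promoter windows at recurring regions were richer in GC than promoters at large. The table gave a window within 1 kb for 87 regions, of which 44 lay wholly and 30 partly inside the region. Their median GC content was 74.0%, against 62.3% over all 22199 protein-coding windows. At windows within 1 kb of peaks that did not recur, leaving out those of the 87 regions, the median was 70.7% in replicate 1 (926 windows). In replicate 2 it was 71.0% (743 windows). A window could lie near such peaks of both lists. Both a GC content of at least 50% and a ratio of observed to expected CG of at least 0.6 were met by 81 of 87 windows (93.1%, interval 85.6 to 97.4), by 13316 of all 22199 windows, and by 88.8% and 85.7% of those at the other peaks. The ratio itself had a median of 0.87 at recurring regions and at the other peaks of each list. The part of base composition in the overlap was not tested.

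**Figure D4:**
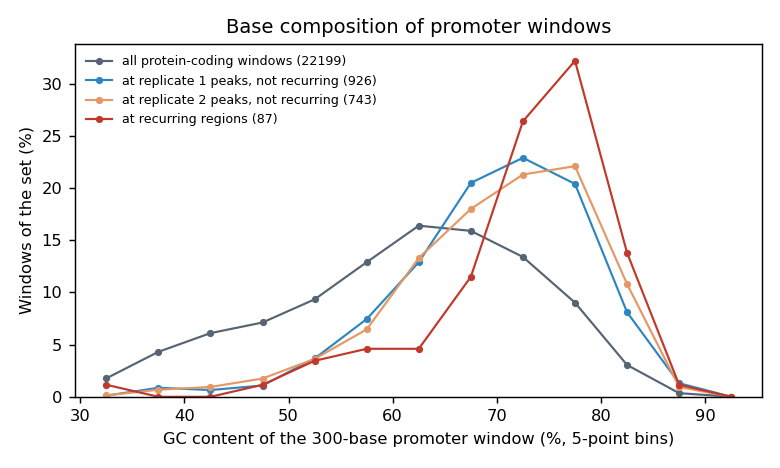
GC content of 300-base RefSeq promoter windows in bins of 5 percentage points (x axis) and the share of each set's windows in the bin (y axis). Windows at recurring regions peak at 75 to 80% GC (32.2% of 87), where windows at other peaks of replicate 2 also peak but with a lower share (22.1%), and all protein-coding windows peak at 60 to 65%.

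Short motifs were counted in these windows on both strands. The GC box (GGGCGG) was in 75 of 87 (86.2%, interval 77.1 to 92.7), in 56.3% of all windows and in 78.9% and 80.6% of windows at the other peaks. CCAAT was in 25.3%, against 34.7% of all windows and 30.7% and 27.9% at the other peaks. The TATA box (TATAAA) was in 4 of 87, at KRT38, LRRFIP2, TCF7 and INSIG1 (4.60%), against 9.47% of all windows but 4.75% and 4.85% at the other peaks. The windows of LRRFIP2 and TCF7 lay outside their regions. The letters CCTCTGA, the end of the negative regulatory element described for NKRF in the interferon beta promoter, were in 4 windows, at DGKA, FARP1, SPOUT1 and DDX31 (4.60%), against 6.21% of all windows and 5.62% and 4.71% at the other peaks. The NF-kB consensus was in 5, at RAB34, LOC124908044, NSFL1C, DEK and MIOS (5.75%), against 6.53%, 8.21% and 8.34%. For these last 2 motifs every comparison share lay inside the interval of the recurring set, 1.27 to 11.4 and 1.89 to 12.9. CCGGAAG, an ETS factor core, was in 13.8% against 12.8% of all windows, the E-box CACGTG in 8.05% against 8.34% and TGACGTCA in 2.30% against 2.26%. GCGCATG, part of the NRF1 motif, was in 0 of 87, which by a limit of 3 counts allows up to 3.45%, against 5.26% of all windows and 6.59% and 6.33% at the other peaks. The GC box overlaps in sequence with general GC richness.

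By function, the neighbours covered much of the cell's machinery. The classes below were drawn up after the neighbouring genes were known, hold 98 of the 155 regions and are descriptive. A region at a start may lie at that of another gene than the one classed. Some classed regions lay far from the gene, such as one 23759 bp from NOM1 and one 43532 bp from BHLHE23. Cytoskeleton, polarity and small GTPase genes accounted for 19 regions, 15 of them at starts, with 8 to 85 tags in replicate 1 and 9 to 70 in replicate 2. Beside SYDE2, MTCL2, CAMSAP1 and MYO3A they included MYL12B, a myosin regulatory light chain gene (41 and 19 tags), CDC42EP4, a Cdc42 effector gene (41 and 24), and FARP1, a guanine nucleotide exchange factor gene (58 and 18). MACF1, the spectraplakin that links actin and microtubules, held a region inside the gene with 17 and 20 tags. VANGL1 and PARD6A act in planar and apical polarity.

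Gene regulation formed another large group. Transcription factors and cofactors neighboured 18 regions, 9 at starts, with medians of 23.5 and 18.5 tags in replicates 1 and 2. Among them were CBFB, the partner of RUNX factors (44 and 36 tags), RBL2, the retinoblastoma-like protein p130 (17 and 20), LIN9, a subunit that works with it in the DREAM complex (32 and 24), and PPARGC1A, a coactivator of mitochondrial genes (43 and 23). Chromatin proteins neighboured 11 regions, 8 at starts, among them PCGF5 of Polycomb repressive complex 1 (42 and 38), the histone demethylase gene KDM7A (27 and 23), DEK (21 and 43) and the linker histone gene H1-2 (15 and 9). RNA-binding and translation genes had 13 regions with medians of 45 and 35 tags. GCN1, a sensor of stalled ribosomes, had 46 and 40, and BZW1, a regulator of translation start choice, 33 and 46.

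Signalling genes neighboured 16 regions, 9 at starts. TGFB1, which encodes transforming growth factor beta 1, had 60 and 41 tags, with summits 507 and 1033 bp downstream of its start. RELT, a tumour necrosis factor receptor family gene, had 29 and 37, and OTUD7B, which encodes a deubiquitinase that restrains NF-kB signalling, had 46 and 33. FGFR3, a fibroblast growth factor receptor gene, had 42 and 25, and the receptor phosphatase genes PTPRJ and PTPRM had 38 and 42 and 23 and 30. With a reciprocal overlap of 50% the regions at TGFB1, FGFR3 and PTPRJ no longer counted as shared.

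Enzymes of lipid signalling included 3 of the 10 diacylglycerol kinase genes (with 0.957% of all protein-coding genes having a region inside or within 10 kb), which turn diacylglycerol into phosphatidic acid. This family was singled out after its members were seen. DGKZ had 41 and 24 tags on chromosome 11 at 46332514 to 46333416. DGKQ had 60 and 20 on chromosome 4, and DGKA 9 and 8 at an internal start on chromosome 12. Their widths spanned 241 to 1221 bp, DGKA being narrow and low. Under a reciprocal overlap of 50% those at DGKZ and DGKQ no longer counted as shared, and with at least 10 tags per peak that at DGKA did not.

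Membrane traffic was represented by 7 regions, with medians of 34 and 22 tags: AP2A2 of the clathrin adaptor (83 and 38), COG2 of the Golgi tethering complex, NSFL1C, REPS1, CLTCL1, UBXN4 and the nuclear import receptor TNPO1. All 7 lay at a start, but the one near CLTCL1 was that of SLC25A1, a transporter gene, and the region counts in both classes. Transporters and channels had 7, among them SLC4A7, a bicarbonate cotransporter gene with 40 tags in each library, SLC39A13, a zinc transporter gene (66 and 35), and the efflux pump gene ABCC4 (33 and 19). Genes of glycan and hyaluronan synthesis had 5, at HAS3, EXT1, MAN1A2, ST6GALNAC6 and POFUT1, with 28 to 77 and 21 to 43 tags.

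Among 17 gene lists, whose members were chosen with earlier results of these data known, few genes had a recurring region inside them or within 10 kb. Over all 20056 protein-coding genes 192 did (0.957%), and 112 had one within 1 kb of an end (0.558%). None of 17 NF-kB subunit and inhibitor genes did, none of 39 NF-kB target genes, CXCL8 included, and none of 30 ribosome biogenesis genes, 34 cell cycle genes or 32 interferon response genes. Lists of this size would hold fewer than 1 such gene at the background share, so these counts are near it. Of 64 cytoskeleton genes 4 did (6.25%), CAMSAP1, MTCL2, MYO3A and MACF1. The first 3 had been named in earlier results of these data, so this count is no independent evidence. Of 50 RNA-binding and splicing genes 2 did, IGF2BP2 and SRRM3, and of 32 genes of mesenchymal transition and invasion 1, TGFB1, and these 3 had likewise been named before. Among 517 genes whose symbol begins with ZNF, listed as protein-coding by RefSeq, it was 8 (1.55%), 1 of them the divergent transcript ZNF470-DT, with an end within 1 kb at ZNF521, ZNF777 and ZNF785. Among 386 solute carriers it was 5 (1.30%), and among 390 olfactory receptor genes 0. None of 21 breast epithelial or 7 leukocyte and endothelial marker genes did.

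The 39 regions away from starts and ends of protein-coding genes were narrower and weaker, and their paired summits lay closer together. Inside genes were 19 (12.3%) and between genes 20 (12.9%), against 37.5% and 43.4% of all replicate 1 peaks and 39.4% and 34.2% of all replicate 2 peaks. Their median width was 319 bp, against 884 bp at starts, and median tags were 13 and 10 against 40 and 25. Summits were under 100 bp apart in 24 of 39 (61.5%, interval 44.6 to 76.6) and in 26 of 90 at starts (28.9%, interval 19.8 to 39.4), with medians of 65 and 198 bp. A gene that is not protein-coding, a long non-coding RNA gene or a pseudogene, lay within 1 kb of 10 of the 39, a share not counted for other peaks. Across all regions summit distance rose with width (Spearman correlation 0.62, 155 regions), and a narrow pair cannot have distant summits.

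Inside genes, SYNPO, which encodes the actin-associated protein synaptopodin, had 29 and 45 tags, and SMARCD3, a subunit gene of the SWI/SNF complex, 28 and 25. EXD3 had 46 and 23. CIT, which encodes the kinase citron, and GNB4, a G protein subunit gene, stood at the low end, with 8 and 10 and with 8 and 9. Between genes, the region 1380 bp from RBM38, an RNA-binding protein gene, was the strongest, with 62 and 35 tags.

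The 5 regions farthest from a protein-coding gene end were named by distant neighbours and lay 435764 to 3698473 bp away. On chromosome Y at 11333077 to 11333271, 27 and 21 tags were called, with summits 2 bp apart. On chromosome 20 at 30377394 to 30377663 it was 22 and 10, with summits 24 bp apart. On chromosome 22 at 11829477 to 11829719 it was 8 and 12, on chromosome 6 at 81263834 to 81264131 it was 11 and 8, and on chromosome 3 at 177808930 to 177809579 it was 14 and 16. An unplaced scaffold, GL000214v1, held 13 and 16 tags at 108556 to 108874, with summits 13 bp apart. Other regions lay 5651 bp from FRG2C and 95127 bp from POTEM, both of which belong to families of near-identical copies. How reads that match several places were treated was not given in the sources used here, so these positions are uncertain, that on chromosome Y included. In all, replicates 1 and 2 had 4 and 3 peaks on chromosome Y. Close summits do not settle where such reads came from.

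Control cells had almost no peaks beside the recurring regions, and about as few as beside any knockdown peak. No region overlapped a control peak, and over all knockdown peaks 0.145% and 0.0896% overlapped one of control replicate 1 and 0.0132% and 0.0224% one of control replicate 2. Within 10 kb, control replicate 1 had a peak at 5 of 155 regions (3.23%, interval 1.06 to 7.37), where over all peaks 5.02% of replicate 1 and 4.64% of replicate 2 had one. A peak of either control lay within 10 kb of the same 5 regions, with 5.78% and 5.22% over all peaks. Control replicate 2 had one at 0 of 155, which by a limit of 3 counts allows a share of up to 1.94%, where all peaks gave 0.779% and 0.650%. Within 100 kb it was 52 and 9 of the 155. The nearest peak of control replicate 1 lay at a median of 283 kb from the regions, against 163 and 193 kb from the other peaks of the knockdown lists, and that of control replicate 2 at 1119 kb against 1088 and 1020 kb. Within 10 kb the members' share thus lay near the background in both controls. For control replicate 1 at 100 kb it was 33.5%, against 37.2% and 33.9% of other peaks. At 300 kb it was lower than theirs, 52.3% against 66.0% and 61.0%, but at 1000 kb it was 89.0% against 88.8% and 85.9%.

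The 5 regions with a control peak nearby were of the weaker kind apart from FARP1, and all 5 control peaks held 6 or 9 tags. Peaks of that list ran from 6 to 29 tags, and 68.1% of them held 6, the smallest number. At ANGPT1, an angiopoietin gene, a control peak of 6 tags lay 839 bp from a region with 7 and 6. At PBX3, a homeobox gene, one of 6 tags lay 4657 bp from 14 and 12, and at KRT38 one of 6 tags lay 5863 bp from 9 and 8. At FARP1 the distance was 8494 bp, with 9 tags against 58 and 18. The intergenic region on chromosome 3 nearest TBL1XR1 had one of 9 tags at 8756 bp. A list gives no value where no peak was called, so signal in control cells below the caller's threshold cannot be read from it.

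**Figure D5:**
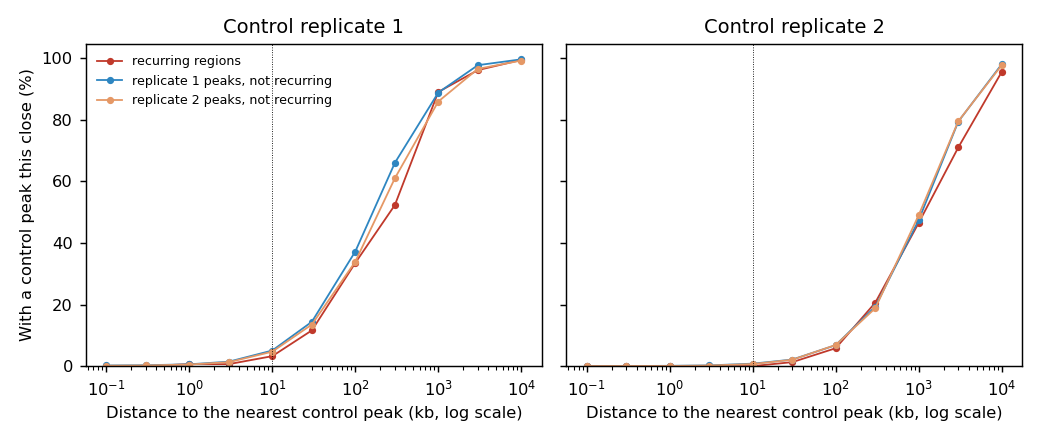
Share of recurring regions, and of other peaks of each si-Uc003xsl.1 list, that have a control peak within the distance on the x axis (kb, log scale), for control replicates 1 and 2; the dotted line marks 10 kb. For control replicate 1 the shares within 100 kb are 33.5% of recurring regions against 37.2% and 33.9% of other peaks. Within 300 kb they are 52.3% against 66.0% and 61.0%, and within 1000 kb 89.0% against 88.8% and 85.9%.

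Close to the limit of 1 bp, several pairs barely met or barely missed. The smallest overlaps were 1 bp near RIOK1 (13 and 8 tags), 3 bp at FAM124A (29 and 20) and at GNB4, 9 bp at the chromosome 3 region nearest TBL1XR1, and 16 bp at MTCL2. At MTCL2 a second, larger peak of replicate 1 overlapped the same peak of replicate 2. Just outside, peaks were 13 bp apart at TP53I13 (28 and 26 tags), 19 bp at ZKSCAN2 (21 and 19), 38 bp at MIB2 (31 and 15), 41 bp at MNX1 (120 and 44) and 44 bp at RFX1 (7 and 13). MNX1, a homeobox gene, thus carried more tags in replicate 1 than all but 2 of the recurring regions without counting as one. Of 160 overlapping pairs 6 shared under 50 bp, and the median region shared 92.5% of its narrower peak.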

How the data were processed

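Each NKRF library was called against its own input library. Per the file headers, MACS 1.4.2 with a p-value of 1e-04 made the lists of control replicate 1 and of both si-Uc003xsl.1 libraries, and MACS 2.1.1.20160309 with a q-value of 0.05 made that of control replicate 2. The submitters' processing notes name Bowtie2 and GRCh38.p11. The authors deposited tag counts per peak without normalization, a score on the scale of minus log10 p-values multiplied by 10, the fold enrichment ratio over input and a false discovery rate in percent. For control replicate 2 they deposited pileup signal and -log10 of p-value and q-value, per the file headers, of which positions alone were used. Inputs and IgG were not analysed here beyond these headers.

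Genes came from a RefSeq table (GRCh38.p14, 59792 genes, 20056 protein-coding). A promoter table with 35116 windows gave starts and strand for 15843 protein-coding genes (79.0%). Positions on placed chromosomes do not differ between patches of GRCh38. Distances run from region edges. A region counts at a start before any other place, and its tags are those of its strongest peak in each list. Shares carry exact Clopper-Pearson 95% intervals (scipy 1.17.1), which, like limits for a count of 0, cover counting error only. No hypothesis test was run, since the overlap chose the members. Interval code was tested on simulated data. Members, gene lists and the naming rule (12 regions highest by tags, 5 widest, 5 farthest from genes, those with a control peak within 10 kb, list members, shared ends and the pairs nearest the limit) were chosen with earlier results of these data known.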

Additional observations from a re-analysis of the deposited data

How the results depend on the processing

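Of 36 recomputed values, 21 stayed within the main interval or within 1.5 times the main value. A reciprocal overlap of 50% left 202 peaks in 101 regions and a score of at least 60 left 14 peaks in 7 regions, those at DGKZ, CTSF, FAM124A, IGF2BP2, ZDHHC2, ST6GALNAC6 and CAMSAP1, where 315 peaks in 155 regions were found. The reciprocal overlap also lost HPCAL1, DENND2D, PCGF5, DEK, FARP1 and VANGL1. The share of regions with a control peak was 0 of 7 at that score (interval 0 to 41.0). It was 0.645% within 1 kb and 37.4% within 100 kb. Leaving out either control library gave 0 to 3.23%, since all 5 such peaks were from control replicate 1. The share near gene ends rose from 67.1% to 75.8% with at least 10 tags and 74.8% with genes of every kind. At the higher score it was 6 of 7 regions (85.7%), with an interval of 42.1 to 99.6 that holds the main share. Among regions of 500 bp or less, an alternative chosen after seeing the data like those on summits and 5′ gene ends, 27.8% were at starts. Median region width was 393 bp away from gene ends against 676 bp in all. The median log2 ratio of replicate 2 to replicate 1 tags was -0.42 as deposited and 0.32 after scaling to filtered tags, because the libraries differ in depth. Counting 1 kb around gene ends, 13 listed genes remained of 25. No paired analysis was possible because the results come from no test. A knockdown library could not be left out, since the rule needs both. The cause of the other shifts was not tested.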

Other observations

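Chromosomes 15, 21 and X held no recurring region. Replicates 1 and 2 of si-Uc003xsl.1 had 171 and 66 peaks on chromosome 15, 87 and 47 on chromosome 21 and 91 and 44 on chromosome X. The highest shares on autosomes were 4.48% of replicate 1 peaks on chromosome 20 and 6.74% of replicate 2 peaks on chromosome 18. Among chromosomes with many regions, chromosome 1 had 16, chromosome 11 had 14 and chromosome 7 had 11.

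The region at HPCAL1 held the highest score of the whole replicate 1 list (131.62) and, in the same row, a false discovery rate of 100.00%, where the member peaks of that list had a median rate of 30.66%. In replicate 2 the peak there had a score of 44.57. At IGF2BP2 the scores were 63.58 and 124.85, the latter the highest of the members in replicate 2. Scores and tags ranked the members differently: PPDPF, with most tags, had scores of 44.27 and 52.76. The 12 regions at internal starts and the 4 at starts of non-coding genes, 3 of which also lay at a protein-coding gene end of unknown strand, were found with a table that lists several starts per gene, and further starts of genes not in that table were not looked for.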
